A study of Mus musculus with 4 samples.

Results

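The enzymes of protein N-glycosylation were compared at the RNA level between 2 fractions of NIH/3T3 cells, a mouse embryonic fibroblast line: pseudopodia, the protrusions of migrating cells, and the cell bodies left behind. The set was defined by name: 37 genes that build, transfer, trim or remodel the N-linked glycan, with every probe set whose platform annotation gives exactly 1 symbol, that symbol being on the list. All 37 genes were found, among 18194 genes named on the array, with 70 probe sets of 45037 that are not controls. Of these, 53 probe sets of 35 genes were bright enough to be tested, among 22519 probe sets and 10962 genes in all. The genes were chosen with earlier results of these data known.

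The data comprise 2 arrays of pseudopodia (replicates 1 and 2) and 2 arrays of cell bodies (replicates 1 and 2), all from serum-starved cells that had spread for 2 h on a fibronectin-coated porous membrane and had then met lysophosphatidic acid (LPA), a lipid of serum to which fibroblasts migrate, at 150 ng/ml from below for 1 h. Both fractions were fixed lightly in 0.3% formaldehyde for 10 min. Protrusions were then taken from the underside of the membrane, cell bodies from its upper side, each after the other side had been wiped away by hand. Formaldehyde crosslinks were reversed at 70 °C for 45 min in all samples. Calf serum at 10% is also listed for all of them. Unstimulated cells were not analysed here, so the comparison concerns where RNAs lie in LPA-stimulated cells and not the response to LPA.

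N-glycosylation begins in the endoplasmic reticulum, where a branched oligosaccharide is assembled on the lipid dolichol and moved as a block onto asparagine residues of proteins that are being made. Glucosidases and mannosidases then trim the glycan while the protein folds, and enzymes of the Golgi apparatus add the branches and sugars of mature glycans. Fibroblasts use the pathway for collagens, fibronectin, integrins and other proteins that pass through the secretory route, and nearly all of its enzymes are themselves proteins of the endoplasmic reticulum or Golgi membranes or lumen.

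By the brightest probe set of each gene, 7 of the 35 N-glycosylation genes tested fell in pseudopodia, relative to the total signal of each fraction, and 0 rose. The 7 were Alg1, Alg9, Rpn1, Rpn2, Mogs, Ganab and Mgat1, which span the pathway from lipid-linked assembly to the Golgi, and they were 1.71-fold to 3.00-fold lower, with adjusted p from 0.0165 to 0.0377 (limma, two-sided, Benjamini-Hochberg over all genes tested). Among all 10962 genes the same test called 3.44% lower and 1.82% higher. The other 28 N-glycosylation genes did not pass, although 25 of them also had negative differences.

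Each difference below is the log2 ratio of pseudopodia to cell bodies ± its SE from limma, fitted on log2(signal + 32) with n = 2 arrays per fraction, so that -1 means 2 times lower in pseudopodia. Signals are the authors' MAS5 values as deposited. The study calls its samples independent but does not describe how their cultures were kept apart, and p-values cover only the spread between these arrays. The median over the 35 genes was -0.77, beside 0.01 over all genes, and it was -0.72 in the replicate 1 arrays and -0.69 in the replicate 2 arrays. Negative values were found in 32 of the 35, against 48.8% of all genes, and in 28 of the 35 in both same-numbered pairs, against 33.4% of all genes. Both pseudopodia arrays lay below both cell body arrays in 27 of the 35 (25.2% of all genes) and above them in 2 (27.4% of all genes). In all 4 possible pairs of a pseudopodia with a cell body array, 13 genes were lower by a factor of 1.5 or more and 0 were higher by it, against 5.38% and 3.14% of all genes.

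Whether a gene passed depended on the settings of the test and on single arrays. Without a variance trend limma called 0 of the 35 (21 at an unadjusted p under 0.05), and 0 of all genes (2232 at an unadjusted p under 0.05). Without the signal minimum it called 1 of 37, Ganab (22 at an unadjusted p under 0.05), while 38 of all genes were lower and 22 higher. Without cell body replicate 1 or cell body replicate 2 it called 0 of the 35 (15 and 18 at an unadjusted p under 0.05) and 0 of all genes (1291 and 1470 at an unadjusted p under 0.05). Without pseudopodia replicate 1 or pseudopodia replicate 2, 18 and 11 of the 35 were lower, and 1029 and 737 of all genes. In these fits a lone array is assumed to vary like those of the other fraction. With the replicate number as a block, 20 of the 35 were lower and 0 higher, against 11.0% and 8.74% of all genes. The additional genes were Alg2, Alg3, Alg5, Alg8, Alg12, Ddost, Tusc3, Prkcsh, Uggt1, Man1b1, Man1a, Mgat2 and B4galt1. That fit leaves 1 residual degree of freedom, so its p-values rest mostly on a spread shared by all genes. The p-values of the main fit also do, with 2 residual degrees of freedom beside 6.25 drawn from all genes.

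**Figure D1:**
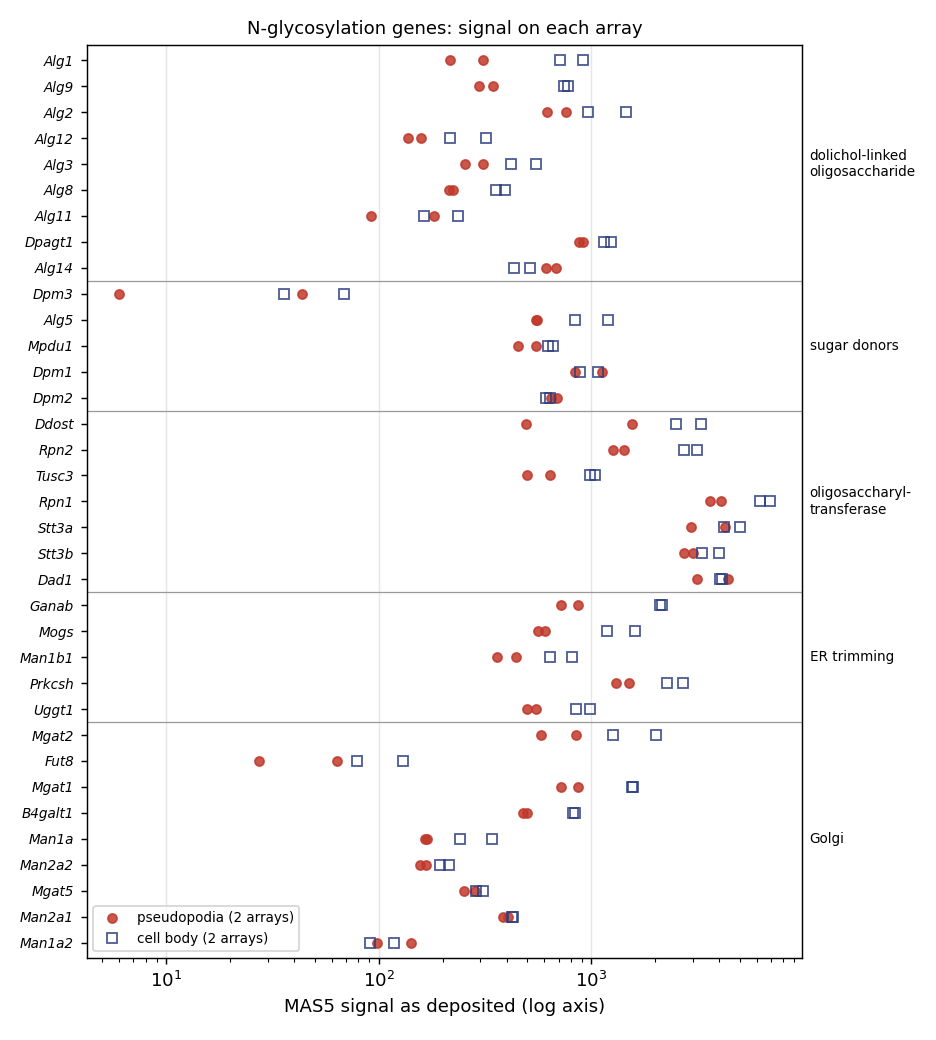
MAS5 signal as deposited (log axis) of the brightest probe set of each of the 35 N-glycosylation genes tested, with filled circles for the 2 pseudopodia arrays and open squares for the 2 cell body arrays, grouped by role. In 27 genes both circles lie left of both squares, and in 2 (Alg14, and Dpm2, whose value turned negative on hybridization controls) both lie right of them.

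The separation of the fractions and the state of the RNA were checked on the same arrays. Of 10 recalled protrusion RNAs, a list chosen partly on these samples, 7 rose in pseudopodia and 0 fell. Of 4 nucleus-retained RNAs measured, 2 fell (Neat1 and Kcnq1ot1) and 0 rose. Of 8 fibroblast markers listed, 6 were measured, while Thy1 and Lum lay below the signal minimum. None of the 6 passed in either direction by its brightest probe set, with 4 negative and 2 positive values between -0.41 and 0.27. With the replicate block 2 of them were lower. Dimmer probe sets of Fn1 (-2.56), Pdgfrb (-1.29) and Col1a2 (-0.98) passed as lower over probe sets (limma adjusted p = 0.0109, 0.0242 and 0.0245). Of 10 markers of other cell types with a probe set, 5 were bright enough to be tested and none passed. The ratio of 3' to 5' control signal for beta-actin, which rises as RNA breaks or is copied incompletely, was 1.77 and 3.41 on the pseudopodia arrays, against 1.55 and 1.89 on the cell body arrays. The same ratio for Gapdh differed little, with 0.960 and 1.006 on the pseudopodia arrays, against 0.919 and 0.946 on the cell body arrays. Both ratios were highest on the pseudopodia replicate 2 array, clearly so only for beta-actin. Whether RNA quality had a part in the differences below was not tested. The enzymes' median without the pseudopodia replicate 2 array was -0.68.

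Assembly of the lipid-linked oligosaccharide was represented by 11 genes, of which 9 were tested and 2 fell. Alg1, which adds the first mannose on the cytosolic face of the membrane, had signals of 214.9 and 308.4 in pseudopodia, against 710.0 and 915.5 in cell bodies. Its difference was -1.59 ± 0.25 (limma adjusted p = 0.0228), the largest fall among the genes that passed, and it was -1.65 and -1.52 in the replicate 1 and 2 pairs. Alg9, a mannosyltransferase of the lumen, had signals of 296.1 and 345.1 in pseudopodia, against 741.7 and 777.7 in cell bodies. It fell by 1.21 on the log2 scale (SE 0.20, limma adjusted p = 0.0261), with no overlap between fractions, and its dimmer probe set lay below the signal minimum on every array.

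The other mannosyltransferases and glucosyltransferases of the assembly line did not pass, although their values were of similar sign. Alg2, which adds the mannoses after Alg1, gave 758.6 and 617.6 in pseudopodia, against 1454.2 and 966.9 in cell bodies (-0.78 ± 0.25, limma adjusted p = 0.109). Alg3, which adds the first mannose inside the lumen, stood at -0.74 ± 0.23. Alg12, a mannosyltransferase of the same face, stood at -0.77 ± 0.25 on its brightest probe set and at -0.94 on a dimmer one. Its dimmest probe set gave 40.1 and 5.8 in pseudopodia, against 70.8 and 69 in cell bodies, so the replicate 2 pseudopodia signal lay below the minimum. The value there, -1.30 ± 0.49, was -0.63 and -1.96 in the replicate 1 and 2 pairs. Alg8, which adds the second glucose, gave 214.0 and 223.5 in pseudopodia, against 355.1 and 391.2 in cell bodies, and was at least 1.5-fold lower in all 4 array pairs (-0.73 ± 0.20, limma adjusted p = 0.0762). Pseudopodia and cell bodies were fully separated on the arrays for Alg2, Alg3, Alg8 and Alg12 alike. Alg11, which completes the cytosolic part of the chain, overlapped between fractions on its brightest probe set, with 91.6 and 181.6 in pseudopodia and 234.8 and 163.1 in cell bodies. A dimmer one, close to the signal minimum, stood at -0.38 ± 0.36 without overlap.

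At the start of the pathway the genes tested, Dpagt1 and Alg14, had values of opposite sign, and neither passed. Dpagt1, which begins the chain by placing N-acetylglucosamine phosphate on dolichol, gave 914.0 and 874.7 in pseudopodia, against 1143.8 and 1237.0 in cell bodies (-0.41 ± 0.19, limma adjusted p = 0.245). Alg14, the membrane anchor of the enzyme that adds the second N-acetylglucosamine, gave 609.6 and 677.8 in pseudopodia, against 514.1 and 430.5 in cell bodies. Its value was 0.44 ± 0.21 (limma adjusted p = 0.25), the highest of the 35, and a dimmer probe set stood at 0.51. Alg13, its cytosolic catalytic partner, lay below the signal minimum at 11.0 and 13.5 in pseudopodia and 23.0 and 11.2 in cell bodies, as did both probe sets of Alg6, which adds the first glucose, so neither was tested.

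The sugar donors had a median of -0.35 over 5 genes, and none passed in either direction. This median was -0.22 without pseudopodia replicate 1 and -0.15 without pseudopodia replicate 2. Alg5, which makes dolichyl-phosphate glucose, gave 549.9 and 551.5 in pseudopodia, against 839.1 and 1202.4 in cell bodies (-0.85 ± 0.23, limma adjusted p = 0.0687). The 3 subunits of dolichol-phosphate mannose synthase showed no shared direction. Dpm1, the catalytic subunit, gave 1119.7 and 835.9 in pseudopodia and 887.6 and 1075.5 in cell bodies, with overlapping fractions and differences of 0.33 and -0.36 in the 2 pairs. Dpm2, which stabilises the complex, stood at 0.09 ± 0.19. Dpm3, which tethers Dpm1 to the membrane, was close to the signal minimum with 43.6 and 6.0 in pseudopodia and 35.6 and 68.7 in cell bodies. Its value of -0.87 ± 0.54 was the lowest of the 5 donor genes (limma adjusted p = 0.387), with 0.21 and -1.94 in the 2 pairs. Mpdu1, which is needed to use both donors, stood at -0.35 ± 0.20.

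**Figure D2:**
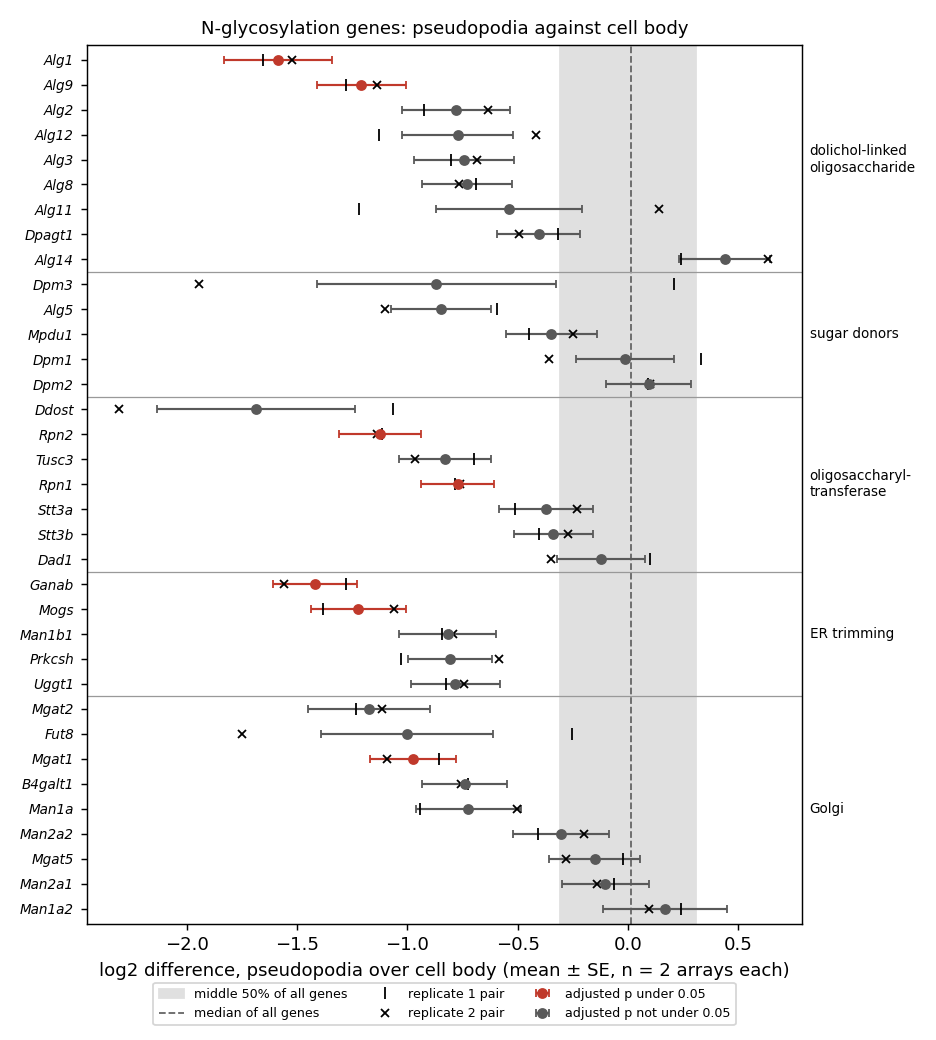
Log2 difference, pseudopodia over cell body, for the 35 genes by role; circles and bars are each gene's estimate ± SE from limma (red where the adjusted p was under 0.05), bars and crosses in black the replicate 1 and replicate 2 pairs, the grey band the middle 50% of all genes. Of the 35 genes, 27 lie left of the grey band's lower edge at -0.31, and Alg14 at 0.44 is the only one right of its upper edge at 0.31.

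The oligosaccharyltransferase, which moves the finished glycan from dolichol to the protein, showed 2 falling subunits among 7, and all 7 values were negative. Rpn2 (ribophorin II), a structural subunit, gave 1257.8 and 1426.2 in pseudopodia, against 2738.5 and 3152.2 in cell bodies (-1.12 ± 0.19, limma adjusted p = 0.0261). The 2 array pairs gave -1.11 and -1.14, nearly the same value. Rpn1 (ribophorin I), a subunit that lies beside the translocon and the ribosome, gave 3610.6 and 4075.7 in pseudopodia, against 6236.3 and 6909.2 in cell bodies (-0.77 ± 0.16, limma adjusted p = 0.0377).

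Rpn1 was measured by 5 probe sets above the signal minimum, and all 5 were lower when p was adjusted over probe sets. They stood at -0.77, -0.79, -0.82, -1.31 and -1.09 from the brightest to the dimmest, with adjusted p from 0.0319 to 0.0442. A further probe set lay below the signal minimum. These probe sets read 1 gene on the same arrays and are not independent of each other, and 4 of them carry the x suffix, by which the array maker marks probes that can match other transcripts.

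The remaining subunits ranged from the largest difference of all the enzymes to none that could be seen. Ddost, a subunit needed for a stable complex, gave 1556.3 and 491.8 in pseudopodia, against 3277.8 and 2494.5 in cell bodies. All 4 array pairs were more than 1.5-fold apart, but the pseudopodia arrays differed from each other so much that the value of -1.69 ± 0.45 did not pass (limma adjusted p = 0.0684; 5.47e-05 with the replicate block). The lower of them is the replicate 2 array, which had the high beta-actin ratio but a Gapdh ratio near those of the other arrays. Without pseudopodia replicate 2 Ddost stood at -0.87, and without pseudopodia replicate 1 at -2.50. Tusc3, an oxidoreductase subunit, gave 637.5 and 496.3 in pseudopodia, against 1044.0 and 983.2 in cell bodies (-0.83 ± 0.21, limma adjusted p = 0.0590). Dad1, a small membrane subunit, gave 4406.8 and 3143.5 in pseudopodia and 4112.5 and 4004.8 in cell bodies, so its fractions overlapped (-0.12 ± 0.20), and its dimmer probe set stood at 0.11.

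For the catalytic subunits, the reading depended on the probe set. Stt3a, which glycosylates proteins as they are translocated, stood at -0.37 ± 0.21 on its brightest probe set, one with the x suffix, where 2948.1 and 4237.9 in pseudopodia overlapped with 4214.3 and 4980.5 in cell bodies. On a dimmer probe set for a single transcript it gave 1009.9 and 1102.3 in pseudopodia, against 2058.6 and 2569.2 in cell bodies, and fell by 1.11 on the log2 scale (SE 0.20, limma adjusted p = 0.0315 over probe sets). Stt3b, which serves sites that Stt3a has missed, gave 2994.3 and 2725.4 in pseudopodia, against 3969.9 and 3293.3 in cell bodies (-0.34 ± 0.18, limma adjusted p = 0.308), and -0.51 on its dimmer probe set. Counted by probe set, 12 of the 53 tested were lower and 0 higher, against 3.32% and 1.08% of all probe sets, and they belong to 8 genes: the 7 above and Stt3a.

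**Figure D3:**
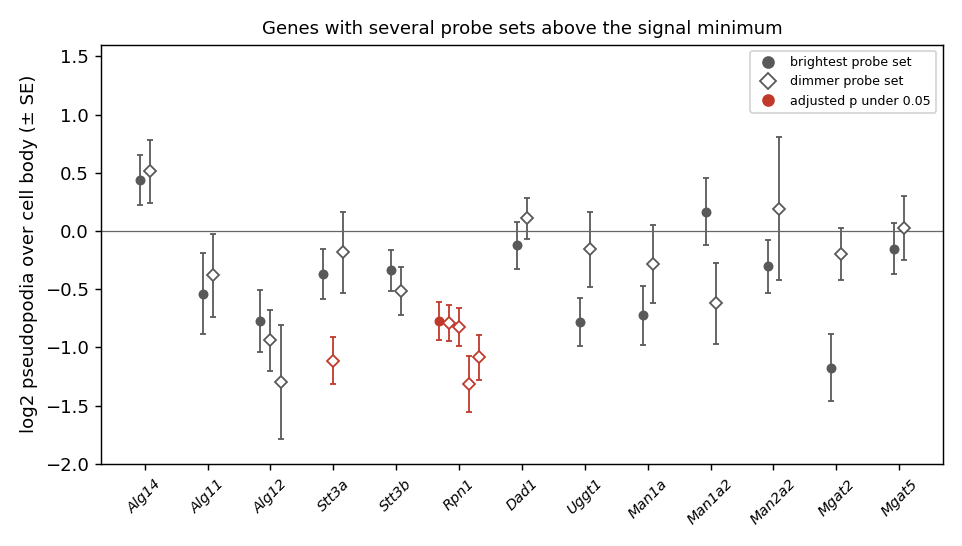
Log2 difference, pseudopodia over cell body, with the SE from limma, for every tested probe set of the 13 genes that have several; filled circles are the brightest probe set of each gene, open diamonds dimmer ones, red marks an adjusted p under 0.05 over probe sets. All 5 probe sets of Rpn1 are red between -0.77 and -1.31, while Stt3a has values of -0.37, -1.11 and -0.18, and Mgat2 of -1.17 and -0.20.

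Trimming and quality control in the endoplasmic reticulum gave the most uniform picture, with all 5 genes negative, no overlap between fractions in any of them, and 2 falls. Ganab, the catalytic subunit of glucosidase II, which removes the inner glucoses and so times the binding of calnexin and calreticulin, gave 861.7 and 720.7 in pseudopodia, against 2110.3 and 2154.2 in cell bodies. It was 2.67-fold lower (-1.42 ± 0.19, limma adjusted p = 0.0165), with -1.28 and -1.56 in the replicate pairs, and a further probe set lay below the signal minimum. Mogs, glucosidase I, which removes the outermost glucose, gave 602.8 and 559.8 in pseudopodia, against 1599.1 and 1184.9 in cell bodies (-1.22 ± 0.22, limma adjusted p = 0.0276). Both enzymes lay more than 1.5-fold lower in every array pair.

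The partners of these enzymes did not pass but were of the same sign. Prkcsh, the regulatory subunit of glucosidase II that retains Ganab in the lumen, gave 1305.9 and 1498.7 in pseudopodia, against 2682.4 and 2254.2 in cell bodies (-0.81 ± 0.19, limma adjusted p = 0.0506). Uggt1, which puts a glucose back on glycoproteins that are not yet folded, gave 549.8 and 497.8 in pseudopodia, against 984.7 and 843.4 in cell bodies (-0.78 ± 0.20, limma adjusted p = 0.0616); a dimmer probe set overlapped between fractions at -0.16. Man1b1, a mannosidase that trims glycans of proteins bound for degradation, stood at -0.82 ± 0.22, with 442.3 and 361.0 in pseudopodia against 805.5 and 636.8 in cell bodies.

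Of 9 Golgi genes, 1 fell and 0 rose. Mgat1, the N-acetylglucosaminyltransferase that opens the way to hybrid and complex glycans, gave 861.0 and 717.5 in pseudopodia, against 1573.0 and 1549.8 in cell bodies (-0.98 ± 0.19, limma adjusted p = 0.0330). Mgat2, which starts the other arm of a complex glycan, had a larger value that did not pass, with 842.8 and 576.4 in pseudopodia against 2000.6 and 1268.5 in cell bodies (-1.17 ± 0.28, limma adjusted p = 0.0506), and its dimmer probe set stood at -0.20. B4galt1, which adds galactose to the branches, gave 498.6 and 476.6 in pseudopodia, against 833.7 and 817.0 in cell bodies, with little spread within either fraction (-0.74 ± 0.19, limma adjusted p = 0.0630). Fut8, which adds the core fucose, was dim and variable, with 63.5 and 27.3 in pseudopodia and 78.8 and 129.4 in cell bodies (limma adjusted p = 0.176, differences of -0.25 and -1.75 in the replicate pairs).

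The Golgi mannosidases differed by gene and by probe set. Man1a, a mannosidase of the early Golgi, gave 169.1 and 164.6 in pseudopodia, against 340.2 and 239.8 in cell bodies (-0.72 ± 0.24, limma adjusted p = 0.118), and overlapped on a dimmer probe set. Its paralogue Man1a2 stood at 0.17 ± 0.28 with overlapping fractions. Man2a1 and Man2a2, which trim the product of Mgat1, stood at -0.10 ± 0.20 and -0.30 ± 0.22. Mgat5, which adds a branch often raised in transformed cells, stood at -0.15 ± 0.21. Dimmer probe sets of Man2a2 and Mgat5 overlapped between fractions at 0.19 and 0.03, and none of these passed.

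**Figure D4:**
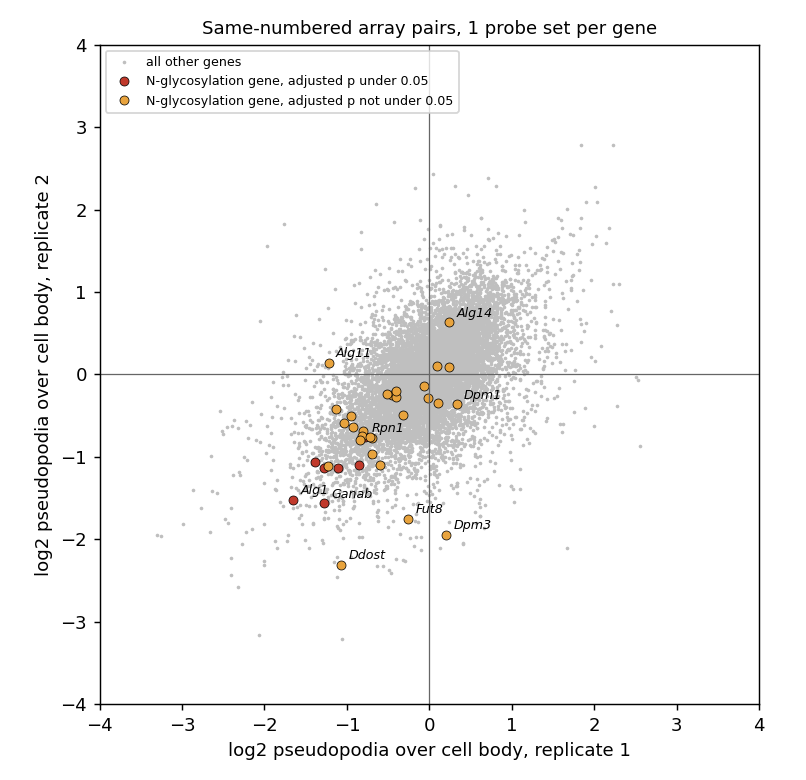
Log2 difference, pseudopodia over cell body, in the replicate 1 arrays (horizontal) against the replicate 2 arrays (vertical), 1 probe set per gene; small grey points are all other genes, larger points the 35 N-glycosylation genes, red where the adjusted p was under 0.05 and orange where not. In 28 of the 35 genes both pairs are negative, and Alg11, Dpm1, Dpm3 and Dad1 have opposite signs in the 2 pairs.

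By role, with no test of the differences, medians were -0.74 for lipid-linked assembly (9 genes), -0.35 for the sugar donors (5), -0.77 for the oligosaccharyltransferase (7), -0.82 for trimming (5) and -0.72 for the Golgi enzymes (9). Without cell body replicate 1 they were, in the same order, -0.51, -0.39, -0.79, -0.68 and -0.48, so the order of the roles changed. Trimming stayed lowest without any other single array. With the replicate block, 6, 1, 4, 5 and 4 genes of these roles, in the same order, were lower. With only probe sets for a single transcript the Golgi median was -0.30 (7 genes), near that of the donors, and those of the oligosaccharyltransferase and of trimming were -1.11 (3 genes) and -1.02 (4 genes). On hybridization controls, which set the median gene at -0.29, the 35 genes had a median of -1.07, with 10 lower and 0 higher, while 571 genes in all were lower and 27 higher, against 377 and 200 in the scaling used here. After quantile normalization the median gene stood at 0.07 and the 35 genes at -0.65, with 8 lower and 0 higher, while 332 genes in all were lower and 215 higher. All 7 genes named above as lower remained so under both scalings and after median centring. The values of Dpm2 and Man1a2 turned negative on hybridization controls, and those of Dpm1 and Man2a1 positive after quantile normalization.

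**Figure D5:**
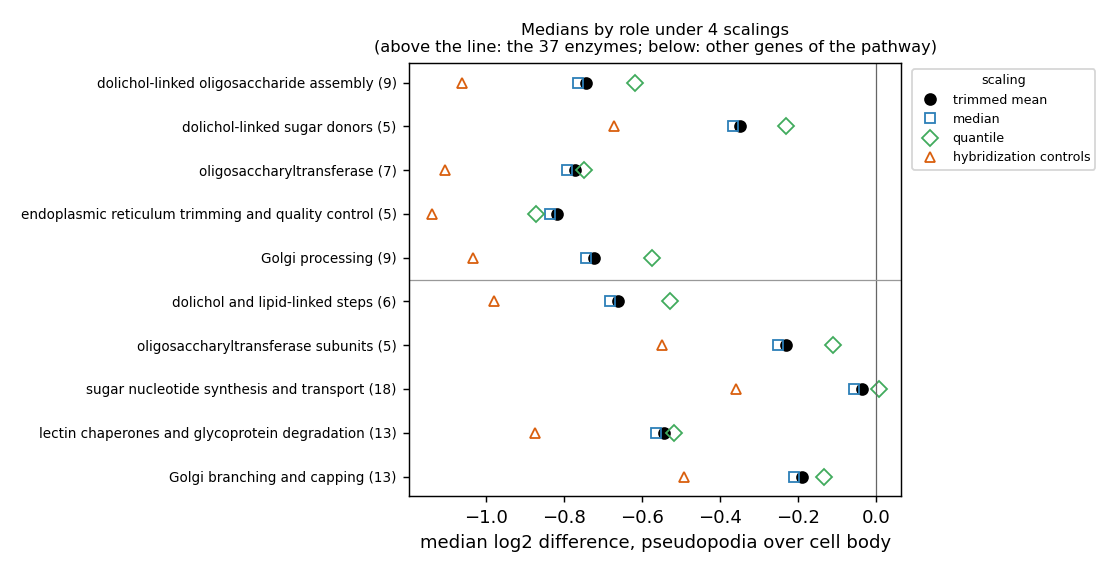
Median log2 difference, pseudopodia over cell body, of the 5 roles of the 37 enzymes (above the line) and of 5 lists of other genes of the pathway (below it) under 4 scalings of the arrays; numbers in brackets are genes tested. Under every scaling drawn the trimming enzymes have the lowest median and the list of sugar nucleotide synthesis and transport the highest, which was -0.04 in the scaling used for the report.

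Other genes of the pathway were listed by role and not by how they moved. Of 60 listed, 55 were tested; 2 fell and 0 rose, a share near the 3.44% and 1.82% of all genes, with a median of -0.23 and negative values in 37. With the replicate number as a block, 13 were lower and 2 higher, against 11.0% and 8.74% of all genes. Tmem258, a small subunit of the oligosaccharyltransferase, gave 71.5 and 57.3 in pseudopodia, against 150.1 and 189.8 in cell bodies (-1.21 ± 0.26, limma adjusted p = 0.0411), with a further probe set below the signal minimum. B4galt5, a galactosyltransferase best known for glycolipids, gave 415.6 and 399.0 in pseudopodia, against 737.6 and 1088.5 in cell bodies (-1.11 ± 0.24, limma adjusted p = 0.0377), also with a further probe set below the minimum. After quantile normalization neither Tmem258 nor B4galt5 passed (adjusted p = 0.0609 and 0.0532 by limma), and after median centring Tmem258 did not (0.0505).

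By role the values differed. Synthesis of dolichol and the remaining lipid-linked steps had a median of -0.66 over 6 genes, and the lectin chaperones and glycoprotein degradation -0.54 over 13, both with 0 genes past the threshold; without cell body replicate 1 the second of these medians was -0.33. In the second list Lman1, a cargo receptor for glycoproteins, stood at -0.81 ± 0.21 and Mcfd2, its partner, at -0.66 ± 0.18, whereas Canx and Calr, the lectin chaperones calnexin and calreticulin, stood at 0.41 ± 0.21 and 0.06 ± 0.19. Sugar nucleotide synthesis and transport, mostly enzymes of the cytosol, had a median of -0.04 over 18 genes, 9 negative and 9 positive; leaving out single arrays gave -0.19 without pseudopodia replicate 1, 0.16 without pseudopodia replicate 2, 0.01 without cell body replicate 1 and -0.14 without cell body replicate 2. Slc35a2, the transporter of UDP-galactose into the Golgi, stood at -0.28 ± 0.24 on its brightest probe set, while dimmer ones at -1.10 and -1.21 passed as lower over probe sets (limma adjusted p = 0.0375 and 0.0344). With only probe sets for a single transcript it stood at -1.80 ± 0.43 (limma adjusted p = 0.0404 over genes). Ugp2, which makes UDP-glucose, gave 770.1 and 735.0 in pseudopodia, against 433.3 and 428.8 in cell bodies; it was the only one of the 55 at least 1.5-fold higher in all 4 array pairs, and did not pass (0.78 ± 0.19, limma adjusted p = 0.0559), although it did after quantile normalization (0.88 ± 0.20, adjusted p = 0.0447), as did Mcfd2 (-0.74 ± 0.17, adjusted p = 0.0477). Lman1, Mcfd2, Canx, Calr, Slc35a2 and Ugp2 were singled out after their values were seen. The small oligosaccharyltransferase subunits Ost4 and Krtcap2, also singled out in that way, stood at 0.25 ± 0.15 and 0.76 ± 0.19 (limma adjusted p = 0.372 and 0.0590). Krtcap2 and Ugp2 were the genes called higher with the replicate block (limma adjusted p = 0.00136 and 0.00548).

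Since several of these genes are known targets of the unfolded protein response in mammalian cells, their promoters were searched for its endoplasmic reticulum stress element. RefSeq promoter windows (GRCm38.p6, 250 bases before to 50 after the annotated start) matched 31 of the 37 genes by symbol. The whole element, CCAAT followed after 9 bases of any kind by CCACG, on either strand, was found in the window of 1 of the 31, Alg12, against 0.137% of all genes with a window. Its parts on their own were common everywhere: CCAAT lay in the windows of 17 of the 31 (41.1% of all genes) and CCACG in those of 16 (35.5% of all genes). Of the 7 genes that fell, 0 held the whole element and 4 held CCAAT. A match describes letters in a window and shows neither binding nor a link to where the RNA lies. The windows are shown for Ganab and Rpn1, which fell and represent trimming and transfer, and for Alg12, which holds the whole element. Each is read along the gene's strand, and capitals mark CCAAT and CCACG on either strand (ATTGG and CGTGG where reversed). The Ganab window is chr19:8897807-8898106 on the plus strand, that of Rpn1 is chr6:88084223-88084522 on the plus strand, and that of Alg12 is chr15:88819269-88819568 on the minus strand. In Alg12 the leftmost pair of capitals, 9 bases apart, is the whole element.
Ganab: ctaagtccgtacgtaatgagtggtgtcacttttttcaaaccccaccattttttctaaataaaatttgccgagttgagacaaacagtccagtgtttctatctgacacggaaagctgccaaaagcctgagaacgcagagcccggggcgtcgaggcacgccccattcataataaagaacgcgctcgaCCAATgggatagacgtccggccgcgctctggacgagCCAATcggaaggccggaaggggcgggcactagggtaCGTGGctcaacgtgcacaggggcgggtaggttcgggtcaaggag
Rpn1: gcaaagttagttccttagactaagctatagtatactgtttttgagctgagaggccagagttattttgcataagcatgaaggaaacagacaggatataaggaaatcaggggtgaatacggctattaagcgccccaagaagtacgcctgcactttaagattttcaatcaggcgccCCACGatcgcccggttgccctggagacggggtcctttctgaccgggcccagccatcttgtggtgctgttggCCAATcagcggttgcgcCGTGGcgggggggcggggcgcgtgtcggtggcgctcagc
Alg12: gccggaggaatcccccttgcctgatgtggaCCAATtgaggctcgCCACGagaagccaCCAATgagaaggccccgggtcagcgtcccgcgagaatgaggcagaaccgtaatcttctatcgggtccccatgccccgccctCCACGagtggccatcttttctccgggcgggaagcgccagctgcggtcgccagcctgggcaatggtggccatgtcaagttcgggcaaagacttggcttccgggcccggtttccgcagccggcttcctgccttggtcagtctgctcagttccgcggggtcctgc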

How the data were processed

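RNA of 2 pseudopodia and 2 cell body samples was labelled with biotin and measured on 4 arrays of the Affymetrix Mouse430_2 design, per the file headers. The deposited values are linear intensities, 1 per probe set and array, which the authors made with MAS5, per the submitters' processing notes; the version is not given in the sources used here. The mean without the top and bottom 2% of values was 250.0 on all 4 arrays, so differences are relative to each fraction's total signal, and fewer protrusions and less RNA per protrusion cannot be told apart. Because MAS5 subtracts the signal of mismatch probes, dim probe sets are noisy. The scanner files hold settings only: same-numbered arrays of both fractions were scanned on 1 day and share an experiment code, so the replicate number pairs them. The change between replicates 1 and 2 in pseudopodia correlated with that in cell bodies (r = 0.243 across 22519 probe sets, which are not independent replicates).

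The deposited signals were rescaled to a trimmed mean of 500 and taken as log2(signal + 32), a scale on which fold changes of dim probe sets come out too small. Only probe sets whose mean on this scale reached the median over the 45037 outside the controls were tested (a signal of about 27.8 in deposited units). The test was limma's (version 3.58.1, R 4.3.3), two-sided, with lmFit and trended eBayes and with p adjusted by Benjamini-Hochberg over probe sets and, refitted with the brightest kept probe set per gene, over 10962 genes. The threshold on the adjusted p was 0.05. No exact permutation test was run, since 2 arrays against 2 allow no p under 0.333. Alternatives were a replicate block, other pseudocounts, scalings and probe set choices, no signal minimum, no variance trend, and leaving out each array.

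By the platform annotation, 34958 probe sets had 1 symbol, 932 several and 9211 none here. A probe set shared by Dpm1 and Adnp was left out. Every enzyme is named by role, with array values for those past the threshold, those at least 1.5-fold apart in all 4 array pairs and their partners, and most others; of the other pathway genes, those past the threshold. Members and lists were chosen with earlier results of these data known. Positions of probes within genes were not analysed here, and no protein sequences were used here.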

Additional observations from a re-analysis of the deposited data

How the results depend on the processing

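No alternative turned the direction of a gene named as lower, and the median of the enzymes stayed negative throughout. Among enzyme genes, 7 passed as reported, all lower, and the same 7 passed with a pseudocount 16 times smaller or 4 times larger, after median centring, after quantile normalization, on hybridization controls and with the replicate number as a block. With that replicate block 27 probe sets and 20 genes of the enzymes and 15 other pathway genes passed, against 12, 7 and 2 (11.3% of all probe sets were lower with it); it ended no call. Without the signal minimum 1 probe set, 1 gene and 0 other pathway genes passed by limma (28, 22 and 14 at an unadjusted p under 0.05), where more features are tested. Without the variance trend limma called 0, 0 and 0 (28, 21 and 13 at an unadjusted p under 0.05); the cause was not tested. Leaving out 1 array at a time gave 0 to 26 probe sets, 0 to 18 genes, 0 to 12 other pathway genes and a median between -0.76 and -0.65. The counts of 0 came without cell body replicate 1 (16, 15 and 11 at an unadjusted p under 0.05 by limma) and without cell body replicate 2 (23, 18 and 12), and the highest without pseudopodia replicate 1. Without pseudopodia replicate 2, 18 probe sets, 11 genes and 8 other pathway genes passed. Leaving out a pseudopodia array also raised the lower and the higher calls among all probe sets. Such fits keep 1 array of that fraction. Some of the other pathway genes that passed in them were higher. The median of -0.77 became -0.63 with the larger pseudocount, -0.74 without the signal minimum and -0.65 after quantile normalization. It was -1.07 on hybridization controls, and -0.74 by the median of all kept probe sets of each gene. Other pathway genes numbered 1 after median centring, 5 on hybridization controls and 6 with only probe sets for a single transcript. With those probe sets 26 enzyme genes were tested and 7 were lower: Alg1, Alg9, Mogs, Ganab, Stt3a, Uggt1 and Mgat2. Among all genes 496 were lower and 161 higher with them. The number of arrays limits every value, and Dpm3 had the largest SE (0.54), followed by Ddost (0.45), Fut8 (0.39) and Alg11 (0.33).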
